A study of Homo sapiens with 9 samples.

Results

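In 1 library of BJ cells, BRD7 was knocked down and oncogenic RAS was then active, and it was set against 2 libraries in which RAS was active with BRD7 intact and the cells were senescent. These 3 libraries were chosen by their labels alone, out of 9 polyA RNA-seq libraries in the series. BJ cells are human fibroblasts, here immortalised with telomerase (hTERT). The oncogene was RASG12V. A 4-OHT treatment of 14 days stands in every label, that of the control too, although the design text describes the control as untreated. Senescent replicate 1 carried the non-targeting hairpin 500 and replicate 2 the non-targeting hairpin 507. The label of the BRD7 knockdown library names neither its hairpin nor a replicate, so a single library, and possibly a single hairpin, stands for the knockdown. The other 6 libraries were 1 control without RASG12V (hairpin 500), 1 with RASG12V and p53 knockdown, and 4 with RASG12V and knockdown of the long non-coding RNA lncRNA-OIS1, each with its own hairpin. They entered the same model and are used below only as points of reference. The series title sets senescent cells beside cells that bypass senescence.

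BRD7 is a bromodomain protein, so called for the module that binds acetylated histone tails. It belongs to PBAF, a form of the SWI/SNF complex that remodels chromatin and also holds PBRM1 and ARID2, and it is known as a cofactor of p53 at genes such as CDKN1A. In oncogene-induced senescence, RAS activity drives fibroblasts out of the cell cycle through p53 with its target p21 and through the RB family, lamin B1 is lost from the nuclear envelope, and the cells secrete inflammatory proteins, proteases and growth factors.

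Each value is a normalised read count per gene, and the deposited table gave all 9 libraries the same distribution, with a median of 340.1. The lowest value, 20, is a floor, and in every library 1375 of the 13745 genes lay there. How deeply each library was sequenced is not known, and counting error cannot be stated. Tests used the 12481 genes that reached 40 in at least 1 library, and a gene was called at an adjusted p under 0.05 (limma, Benjamini-Hochberg). A difference is given as log2 of the BRD7 knockdown value minus the mean log2 of the senescent libraries, so that 1 stands for 2-fold. The knockdown had 1 library, and its spread was taken from the senescent and lncRNA-OIS1 groups, so no difference has a replicate check on the knockdown side. The labels do not say whether libraries came from separate cultures. The p-values measure only the spread between libraries within the senescent and lncRNA-OIS1 groups. In both groups the hairpin differs from library to library, so differences between hairpins and technical differences cannot be told apart in that spread. An exact permutation test of 1 library against 2 cannot go below p = 0.333. The control and lncRNA-OIS1 replicate 4 stood apart: 491 and 300 genes were at least 2-fold above all 8 others there, against 2 genes in the BRD7 knockdown library. Fibroblast markers fitted the label: 0 of 20 were at the floor in any library. Their summed level was 279044.3 in the BRD7 knockdown library and 225353.3 and 200800.7 in the senescent libraries. EPCAM, CDH1, CD3E and PECAM1 were not among the genes tested, but 4 of 12 epithelial, 3 of 12 leukocyte and 1 of 10 endothelial markers were. In the BRD7 knockdown library KRT18 had 1445.7, KRT8 280.6, CD14 117.7, TIE1 44.9 and LAPTM5 32.7. The remaining tested markers of these kinds were at the floor there.

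BRD7 (ENSG00000166164) itself stood at 94.6 in its knockdown library and at 628.7 and 536.6 in the senescent libraries. In the other 6 libraries it lay between 605.1 and 695.3, so the knockdown library was far below all 8. It held 16.2% of the senescent mean (583 ± 65.1, SD, n = 2), a log2 difference of −2.62 (SE 0.15, adjusted p = 0.0461 by limma), and BRD7 fell. It was the only call: 1 gene of 12481, or 0.00801%, passed, with 0 higher and 1 lower. At an unadjusted p under 0.05, 850 genes were higher and 885 lower, and the next adjusted p after that of BRD7 was 0.1962. The call on BRD7 is narrow. Of 14 alternative settings it held in 5 (adjusted p 0.01076 to 0.5912 over all 14), and it was lost on leaving out senescent replicate 1 (0.5912) or 2 (0.4282), or lncRNA-OIS1 replicate 1 (0.2289), 2 (0.2147) or 3 (0.2624).

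The partners of BRD7 in SWI/SNF were described from a list of 22 subunits, BRD7 included, all of them tested. ARID2, a subunit that sets PBAF apart from other SWI/SNF forms, stood at 632.6 in the BRD7 knockdown library and at 308.2 and 297.9 in the senescent libraries. That was the highest value of the 9 libraries, next to 535.1 in the control, 483.1 with p53 knockdown and 404.1 to 493.4 with lncRNA-OIS1 hairpins. The log2 difference was 1.06 (SE 0.17, adjusted p = 0.196), and it did not pass the test. PBRM1 had 1485.7 against 1050.9 and 1042.9 (log2 0.51, adjusted p = 0.289), within the range of the other RASG12V knockdown libraries (1357.9 to 1774). SMARCD3, a subunit found mostly in differentiated cells, had 275.9 against 403.2 and 428. The catalytic subunit SMARCA4 (BRG1) had 1953 against 1906.3 and 1870.2, close to both. Over the list, 14 subunits were above both senescent libraries and 5 below both, with a median difference of 0.22, where the median of all genes tested was −0.02. For comparison, 40.1% of all genes tested lay above both senescent libraries and 45.4% below both. Relative to the same senescent mean, the list median was 0.25 in the control and 0.24 with p53 knockdown. In the lncRNA-OIS1 libraries it was 0.10, 0.24, 0.19 and 0.37, so the median with BRD7 knockdown lay inside their range.

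Because the test called only BRD7, the size of differences was described with a rule added after the values were seen: the BRD7 knockdown value had to be at least 2-fold above, or at least 2-fold below, both senescent libraries. 412 genes were above (3.3%) and 221 below (1.77%). The senescent libraries themselves were at least 2-fold apart in 29 genes. Of the 412, 39 had both senescent values at the floor, and of the 221, 24 were at the floor in the BRD7 knockdown library, so that their folds are lower bounds. At 4-fold the counts were 17 and 19. The rule carries no p-value. Of the 412, the lncRNA-OIS1 libraries had 401, 406, 388 and 348 above both senescent libraries, the p53 knockdown library 381 and the control 356. Of the 221, the lncRNA-OIS1 libraries had 199, 198, 190 and 178 below both, p53 knockdown 192 and the control 157. Most of both sets thus lay on the same side in each library outside the senescent pair, and are not particular to BRD7 knockdown.

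**Figure D1:**
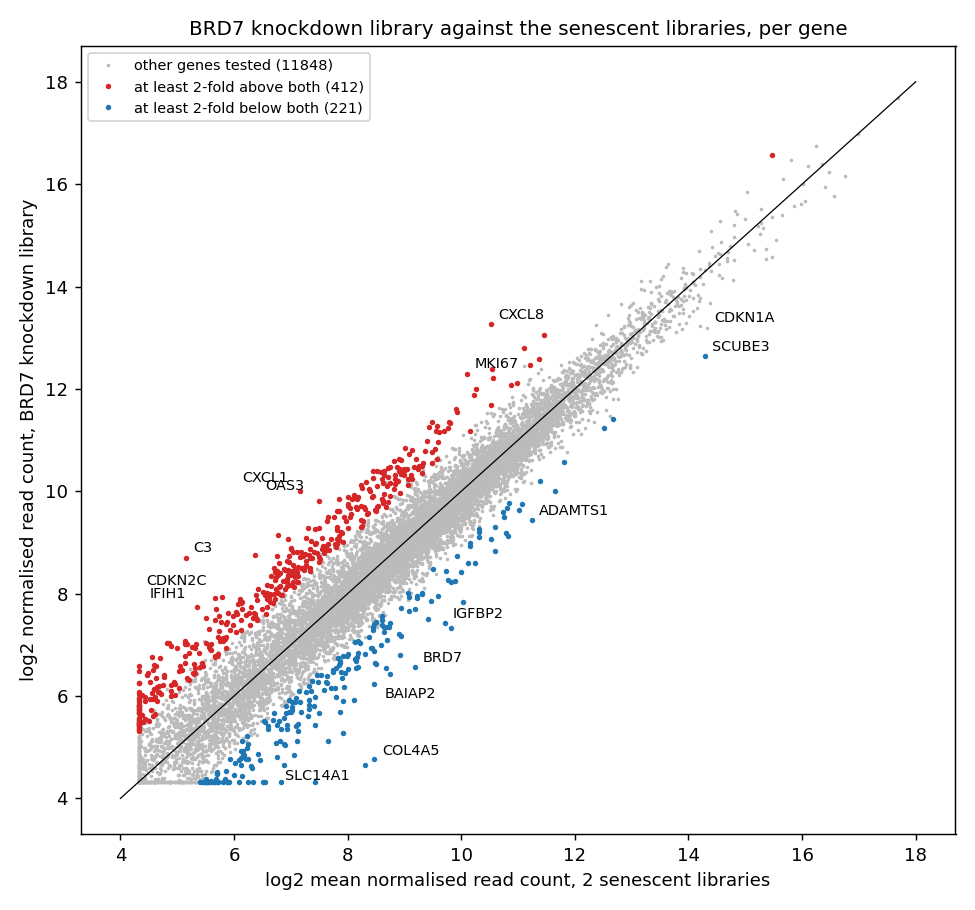
Each point is 1 of 12481 genes, with the log2 mean normalised read count of the 2 senescent libraries on the horizontal axis and the log2 value of the BRD7 knockdown library on the vertical axis; the line marks equality. Red points are the 412 genes at least 2-fold above both senescent libraries, blue points the 221 genes at least 2-fold below both, and BRD7 lies among the blue points at a value of 94.6.

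p53 target genes lay mostly below the senescent level. Of 36 tested, 29 were below both senescent libraries (80.6%, against 45.4% of all genes) and 5 above both. The median difference was −0.36, and the list median stayed between −0.42 and −0.33 over the alternatives. None reached the 2-fold rule and none was called. CDKN1A, which encodes the CDK inhibitor p21 and is the best known p53 target in cell-cycle arrest, stood at 9405.6 in the BRD7 knockdown library against 18745.7 and 22372.6 in the senescent libraries. The control had 3578.4, p53 knockdown 2721.1, and the lncRNA-OIS1 libraries 15473.7, 11146.3, 12588.4 and 6989.6. The BRD7 knockdown value was thus below both senescent libraries and above the control and p53 knockdown, inside the range of the lncRNA-OIS1 libraries (log2 −1.12, SE 0.45, adjusted p = 0.361). GDF15, a secreted stress factor, had 234 against 462 and 601.3 (log2 −1.17, adjusted p = 0.61). TNFRSF10D, a decoy receptor for the death ligand TRAIL, had 2986.6 against 5251.1 and 5544.7 (log2 −0.85, adjusted p = 0.196). EDA2R, another receptor of that family, had 1182.9 against 1961.2 and 2053.7.

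Other p53 targets stayed near the senescent values. MDM2, the ubiquitin ligase that degrades p53, had 2672.1 against 3126.9 and 3192.3, where the control had 1095.2 and p53 knockdown 1214.9. TP53I3 had 966.2 against 955 and 995.2, and the pro-apoptotic BAX 1635.7 against 1810.9 and 1817.2. CYFIP2 had 778.4 against 757.8 and 777.2, while p53 knockdown left 115.2. DDB2, a sensor of damaged DNA, was the member furthest above, at 584.9 against 432.1 and 465.2. In the p53 knockdown library the median of the list was −1.07 against the same senescent libraries, in the control −1.39, and in the lncRNA-OIS1 libraries −0.41, −0.45, −0.12 and −0.80. These medians share the senescent libraries and are not independent of each other. The direct difference between BRD7 and p53 knockdown was above 0 in 31 of 36 targets, with a median of 0.69 and none called.

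Among CDK inhibitors, cyclins and the RB family, 14 of 22 tested genes were above both senescent libraries (63.6%, against 40.1% of all genes). Below both were 7 (31.8%, against 45.4%), and 4 were at least 2-fold above (18.2%, against 3.3%). CDKN2C, the INK4 inhibitor p18, stood at 243.2 against 58.7 and 52 (log2 2.14, SE 0.24, adjusted p = 0.196). All 4 lncRNA-OIS1 libraries (193.3 to 273.4) and p53 knockdown (281.6) lay in the same range, and the control had 760.2. RBL1, the pocket protein p107 and itself an E2F target, had 538.4 against 242.2 and 213, and E2F1 280.2 against 133.1 and 132.6. The inhibitors that RAS senescence is best known for differed less or were at the floor: CDKN2B (p15) had 231.4 against 250.1 and 304, and CDKN2A (p16 and ARF) was at the floor in 8 libraries, with 362.3 in lncRNA-OIS1 replicate 4 alone. CCND1 (cyclin D1) had 26990.8 against 36357.1 in both senescent libraries.

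Genes of mitosis stood further above the senescent level than any other list described here. All 46 members were above both senescent libraries (against 40.1% of all genes), 44 of them at least 2-fold (against 3.3%). The median difference was 1.67, and it lay between 1.48 and 1.87 over the alternatives. None was called (smallest adjusted p = 0.196). In these bulk samples, more cells of a kind and more RNA per cell cannot be told apart. MKI67, the Ki-67 proliferation antigen, stood at 5027.6 against 1231.3 and 972.4, with 3913.6 in the control, 6931.1 with p53 knockdown, and 2574.2, 5049.7, 2960.2 and 5657.9 in the lncRNA-OIS1 libraries. Its value lay above the control and both senescent libraries and inside the lncRNA-OIS1 range (log2 2.20, SE 0.52, adjusted p = 0.201). CCNA2, cyclin A2, had 1224.3 against 382.8 and 316.8 (log2 1.81, adjusted p = 0.196), and the phosphatase CDC25C, which opens mitosis, 183.2 against 48.6 and 41.8 (log2 2.02, adjusted p = 0.196). FOXM1, the transcription factor of the G2 programme, had 1155.8 against 369.8 and 267.2. BIRC5 (survivin) had 2434.7 against 778.8 and 607.4. At the low end, the checkpoint protein BUB3 had 2511 against 2058.2 and 1978.

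**Figure D2:**
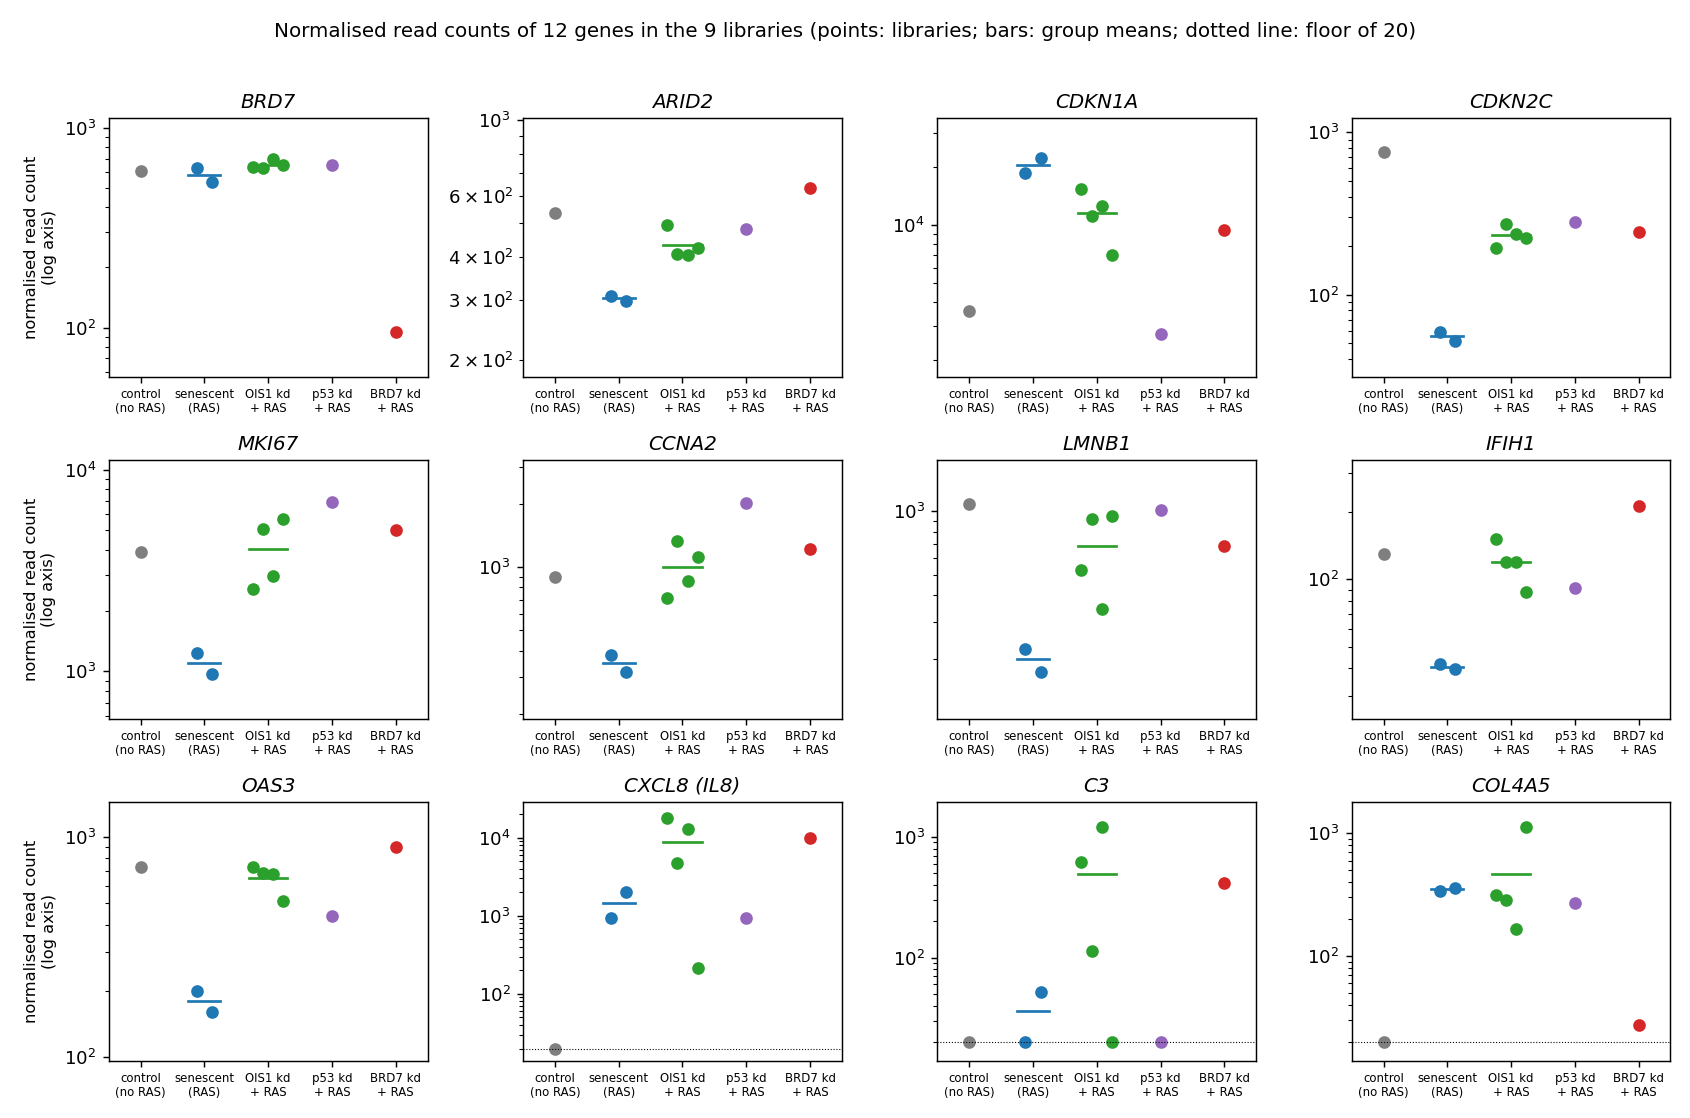
Normalised read counts on log axes for 12 genes, 1 point per library: control (1), senescent (2), lncRNA-OIS1 knockdown (4), p53 knockdown (1) and BRD7 knockdown (1), with bars at the means of the 2 groups that hold several libraries and a dotted line at the floor of 20. The BRD7 knockdown point is the lowest of the 9 for BRD7, the highest for ARID2, IFIH1 and OAS3, and within the range of the other RASG12V knockdown libraries for CDKN1A, CDKN2C, MKI67, CCNA2 and LMNB1.

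Replication and repair genes followed with smaller differences. Of 43 replication genes and E2F targets, 42 were above both senescent libraries (97.7%, against 40.1% of all genes). At least 2-fold above both were 20 (46.5%, against 3.3%), and the median was 1.12. MCM10, a replication protein, had 428 against 120.4 and 95.8 (log2 1.99, adjusted p = 0.201), and PRIM1, the catalytic primase subunit, 239.6 against 82.8 and 54.8. RPA2, part of the protein that coats single-stranded DNA, was the 1 member below both, at 735.2 against 884.6 and 812.8. Of 26 genes of homologous recombination and the Fanconi pathway, 23 were above both (88.5%) and 11 at least 2-fold (42.3%), with a median of 1.02. FANCD2, a central Fanconi protein, had 361.7 against 122.9 and 84.9 (log2 1.82, adjusted p = 0.196), and the helicase BLM 224.3 against 75.7 and 63.1.

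Nuclear lamina and high-mobility-group genes were read as further marks of the senescent nucleus. LMNB1, which encodes lamin B1, stood at 682.3 against 224.3 and 174.9, with 1083.3 in the control, 1015.8 with p53 knockdown, and 526.3, 922.7, 347.1 and 949.6 in the lncRNA-OIS1 libraries. The BRD7 knockdown value lay above both senescent libraries and below the control (log2 1.78, SE 0.65, adjusted p = 0.312). TMPO, another lamina protein, had 2600.3 against 980.6 and 793.4, and HMGB1, a chromatin protein that senescent cells release, 4701.9 against 2440.4 and 2278. HMGA2, an architectural protein of senescent chromatin, had 7938.8 against 11452.3 and 12622.1, while HMGA1 had 18745.7 against 19180.9 and 18745.7. Of 14 genes, 11 were above both senescent libraries (78.6%, against 40.1% of all genes) and 1 below both (7.14%, against 45.4%). The median was 0.72.

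Set beside the other libraries, the mitosis list had a median of 1.06 in the control, 0.90, 1.74, 1.15 and 1.51 in the lncRNA-OIS1 libraries and 2.23 with p53 knockdown, all relative to the senescent mean that also gives the 1.67 of BRD7 knockdown. The direct difference from p53 knockdown, which does not use the senescent libraries, was below 0 in 46 of 46 mitosis genes (median −0.53), in 41 of 43 replication genes (−0.41) and in 23 of 26 repair genes (−0.52). None of these genes was called, and each of the 2 groups is 1 library. Against the control, 44 of 46 mitosis genes were above 0 (median 0.65), none of them called.

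**Figure D3:**
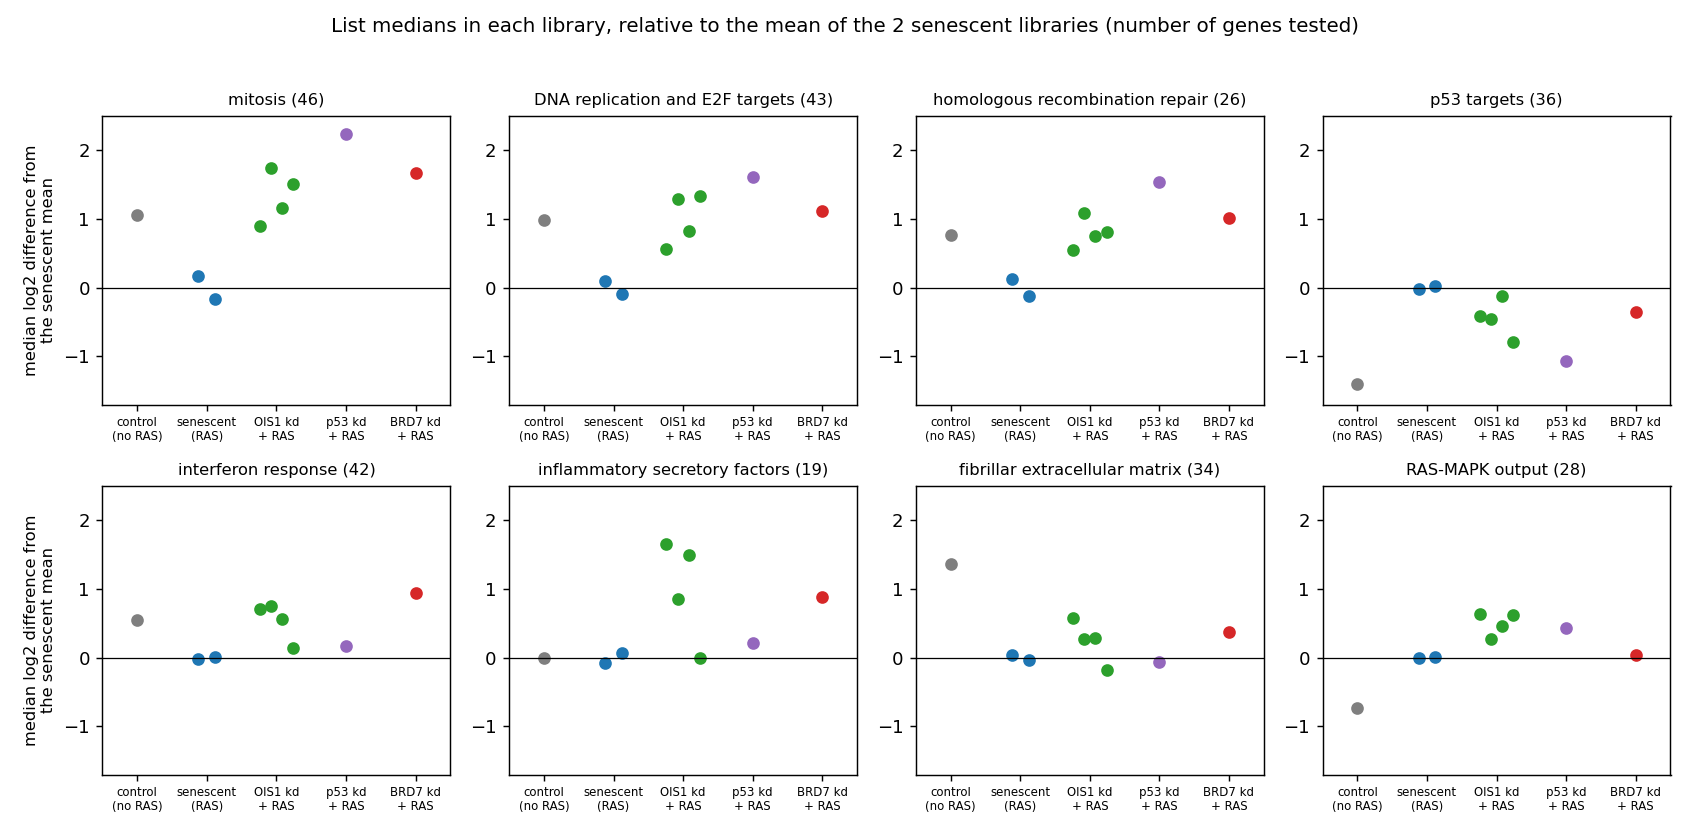
Median log2 difference from the mean of the 2 senescent libraries for 8 gene lists, 1 point per library, with the number of genes tested in each title and a line at 0. For mitosis the BRD7 knockdown library (1.67) lies between lncRNA-OIS1 replicate 2 (1.74) and replicate 4 (1.51), for p53 targets (−0.36) it lies between lncRNA-OIS1 replicates 1 and 3, and for the interferon response (0.94) it has the highest median of the 9.

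The upstream sequences of 3 mitosis genes that lay above both senescent libraries are printed because cell-cycle genes of this kind are known to share a pair of promoter motifs, the CCAAT box and the CHR element. Each is the 170 bases before the RefSeq transcription start (GRCh38.p14), written 5′ to 3′ on the gene's strand, with CCAAT and the CHR letters TTTGAA, or the same letters on the other strand (ATTGG and TTCAAA), in capitals: CCNB2 at chr15:59104976-59105145 (plus strand), PLK1 at chr16:23678719-23678888 (plus strand) and MKI67 at chr10:128126424-128126593 (minus strand).
CCNB2: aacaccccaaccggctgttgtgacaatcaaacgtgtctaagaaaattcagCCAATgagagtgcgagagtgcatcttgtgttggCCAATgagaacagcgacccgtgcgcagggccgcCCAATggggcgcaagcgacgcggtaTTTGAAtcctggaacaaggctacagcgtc
PLK1: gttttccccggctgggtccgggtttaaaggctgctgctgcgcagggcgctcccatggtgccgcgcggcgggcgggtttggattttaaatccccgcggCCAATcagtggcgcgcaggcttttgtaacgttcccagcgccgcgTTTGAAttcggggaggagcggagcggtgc
MKI67: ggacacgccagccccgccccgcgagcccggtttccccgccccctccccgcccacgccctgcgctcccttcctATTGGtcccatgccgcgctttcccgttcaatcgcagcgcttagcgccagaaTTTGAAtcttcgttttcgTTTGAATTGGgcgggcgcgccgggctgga
CCNB2, cyclin B2, holds 3 CCAAT boxes before 1 CHR match. PLK1, a mitotic kinase, holds 1 CCAAT box and 1 TTTGAA match. It also holds TTTAAA, another CHR form, which was not marked in these stretches. MKI67 holds 2 CCAAT and 2 TTTGAA matches, and its last TTTGAA match overlaps the last CCAAT match on the other strand. CCNB2 had a value of 754.2 against 298.8 and 236.8, and PLK1 1056.9 against 397.1 and 264.9.

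Over the RefSeq promoter windows of 300 bases (250 before the start and 50 after), searched on both strands, CCAAT was found in 34 of 46 windows of 39 matched mitosis genes (73.9%), against 34.6% of 35116 windows of all genes. TTTGAA was found in 31 of the 46 (67.4%, against 15.2%) and TTTAAA, another CHR form, in 15 (32.6%, against 12.2%). The replication list, with 53 windows of 38 genes, held TTTGAA in 2 (3.77%). It held the E2F letters TTTCCCGC in 12 (22.6%, against 1.63%), TTTGGCGC in 8 (15.1%, against 0.652%) and TTTCGCGC in 7 (13.2%, against 0.515%). A window can hold several motifs, and windows of 1 gene can overlap. A match describes the letters only, since binding was not measured. The replication list was made up of replication genes and E2F targets, so E2F letters in it are not a finding of these libraries. No expression value entered these shares, and they say nothing about BRD7 knockdown.

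Interferon-response genes were the list in which the BRD7 knockdown library most often had the highest value of the 9, in 16 of 42 genes tested, where 499 of all 12481 genes had it. Of the 42, 41 were above both senescent libraries (97.6%, against 40.1% of all genes) and 20 at least 2-fold (47.6%, against 3.3%). The median was 0.94 (0.61 with a pseudocount of 50, the lowest of the alternatives, to 0.97). None was called. IFIH1, the cytoplasmic sensor MDA5 for double-stranded RNA, stood at 213 against 41.8 and 39.7. The control had 129.4, p53 knockdown 91.6, and the lncRNA-OIS1 libraries 151, 119.9, 119.2 and 87.8, so the BRD7 knockdown value was above all 8 (log2 2.39, SE 0.33, adjusted p = 0.196). OAS3, an enzyme that activates RNase L, had 896.2 against 200.4 and 161.1 (log2 2.32, SE 0.26, adjusted p = 0.196), and 734 in the control. IFIT1, which binds foreign RNA caps, had 567.9 against 102.7 and 116.6 (log2 2.38, adjusted p = 0.204), below the 854.2 of the control. OASL had 89.8 and RSAD2 (viperin) 76, and both genes were at the floor in the senescent pair. STAT2 and ISG15 differed less: STAT2 had 1172.9 against 1101.9 and 979.1, and ISG15 245.2 against 170.1 and 206. UBE2L6, the conjugating enzyme for ISG15, was the 1 member below both, at 1008.9 against 1012.3 and 1042.

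Direct differences from the other knockdowns held no call among these genes. Against p53 knockdown, 40 of 42 interferon genes were above 0 (median 0.67), and against lncRNA-OIS1 knockdown 35 of 42 (median 0.35). In the control the list stood at 0.55 above the senescent mean, in the lncRNA-OIS1 libraries at 0.71, 0.76, 0.56 and 0.14, and with p53 knockdown at 0.16. Against the control itself the median was 0.24, and STAT2 was the 1 member called (lower, log2 −1.49, adjusted p = 0.0225 by limma). In that comparison 2.32% of all genes were called lower, so 1 call among 42 genes is near the share of all genes.

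The upstream stretches of IFIH1 and OAS3 are shown because interferon-regulated promoters are known to carry the element bound by ISGF3 and IRF factors. As above they are 170 bases before the RefSeq start on the gene's strand, IFIH1 at chr2:162318685-162318854 (minus strand) and OAS3 at chr12:112938304-112938473 (plus strand), and capitals mark matches to GAAANNGAA, a core of that element, on either strand.
IFIH1: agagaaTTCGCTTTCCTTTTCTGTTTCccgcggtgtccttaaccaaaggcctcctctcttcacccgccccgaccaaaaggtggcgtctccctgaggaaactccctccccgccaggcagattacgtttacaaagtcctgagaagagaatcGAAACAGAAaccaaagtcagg
OAS3: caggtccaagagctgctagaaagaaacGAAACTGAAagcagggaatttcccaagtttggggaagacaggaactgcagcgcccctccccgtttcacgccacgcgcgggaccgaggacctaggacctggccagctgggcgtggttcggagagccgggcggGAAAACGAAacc
IFIH1 holds 4 matches, of which 3 overlap on the other strand at the far end, and OAS3 holds 2. In the windows of 300 bases, GAAANNGAA was found in 29 of 48 windows of 36 matched interferon genes (60.4%), against 8.11% of all windows. The mitosis list held it in 4 of 46 (8.7%). These letters were chosen after the values had been seen.

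Inflammatory factors of the senescent secretome were mostly above the senescent libraries too, but with senescent and lncRNA-OIS1 libraries that differed widely among themselves. Of 19 tested, 17 were above both senescent libraries (89.5%, against 40.1% of all genes) and 6 at least 2-fold (31.6%, against 3.3%). The median was 0.89. That median was 0.52 with a pseudocount of 50 and 0.64 without senescent replicate 1. CXCL8 (IL8 in the table), the neutrophil chemokine interleukin 8, stood at 9812.7 against 931.6 and 2021.6. The control was at the floor, p53 knockdown had 939.3, and the lncRNA-OIS1 libraries had 17615.8, 4733.9, 12902.8 and 212. With that spread the log2 difference of 2.84 had an SE of 2.63 (adjusted p = 0.727). CXCL1, a related chemokine, had 1023.9 against 99.9 and 185 (log2 2.91, SE 2.60, adjusted p = 0.713), and 20 to 1513.4 in the lncRNA-OIS1 libraries. IL1B, an upstream inducer of this secretome, had 5606.9 against 1035 and 3344.9, and IL1A 43, between 34.4 and 69.2. IL6 had 60.6, with the floor value in the senescent pair, the control, p53 knockdown and lncRNA-OIS1 replicates 2 and 4. LIF, at 26.1 against 29.9 and 39.7, was the 1 member below both. The receptor IL1R1, named after its values were seen, had 2564.3 against 878.2 and 913.2 and became a call on leaving out lncRNA-OIS1 replicate 4 (log2 1.52, adjusted p = 0.04728 by limma).

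Secreted proteases, inhibitors and growth factors showed no common direction: of 37 tested, 13 were above both senescent libraries (35.1%, against 40.1% of all genes). Below both were 19 (51.4%, against 45.4%), with a list median of −0.12. The median was −0.24 with the mean filter of 80, −0.20 without senescent replicate 1 and −0.077 without replicate 2. MMP1, the interstitial collagenase, had 30796.4 against 45321.7 and 50370.2, and MMP3 1966.8 against 3523 and 3178.4. IGFBP2, which binds insulin-like growth factors, stood at 171.3 against 774.1 and 909.4. Every other library was higher, from 338.9 in lncRNA-OIS1 replicate 3 to 2239.3 in replicate 4 (log2 −2.29, SE 1.02, adjusted p = 0.395). PGF, placental growth factor, had 82.4 against 29.8 and 24.9.

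RAS-MAPK output genes stayed close to the senescent level, with a median of 0.04 (0.088 without senescent replicate 2, 0.078 with the mean filter of 80). Of 28 genes, 14 were above both senescent libraries (50%, against 40.1% of all genes) and 9 below both (32.1%, against 45.4%). The feedback inhibitors DUSP6 (5840.3 against 6649 and 6064), SPRY4 (6019.1 against 6480.9 and 6740.9) and SPRY2 (4096.8 against 4102.7 and 3944.3) were near both. HRAS had 14498.6 against 12051.4 and 11321.3, where the control without RASG12V had 26556.6 and p53 knockdown 23342.7. IER3, an immediate-early survival gene, had 1283.2 against 505.7 and 607.7 (log2 1.21, adjusted p = 0.362), and the AP-1 subunit FOSL2 959 against 411.6 and 447.7 (log2 1.16, adjusted p = 0.305). Both were at least 2-fold above both senescent libraries. FOSL2 lay inside the range of the lncRNA-OIS1 libraries (729.1 to 1484.8), and IER3 lay below all 4 of them (1377.9 to 2873.6). FOS had 36.2 and EGR1 523.2, each the lowest of the 9 libraries.

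Matrix genes were above the senescent level more often than not: 22 of 34 tested were above both senescent libraries (64.7%, against 40.1% of all genes). Below both were 7 (20.6%, against 45.4%), and the median was 0.37. THBS2, a matricellular thrombospondin, had 4727.2 against 1574.9 and 1426 (log2 1.66, SE 1.04, adjusted p = 0.553), and COL1A1, the main chain of type I collagen, 17615.8 against 9913.6 and 8350.8. The control was far higher for COL1A1, at 110360.7. Among 19 contractile and TGF-beta genes the median was 0.15, and TAGLN had 1388.2 against 1633.9 and 1660.4, where the control had 10457. TGFBI, at 28.8 against 74 and 69.2, was the 1 member of that list 2-fold below both.

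Of the metabolic and stress lists, lysosomal genes were the ones mostly below: 23 of 33 were below both senescent libraries (69.7%, against 45.4% of all genes). Above both were 7 (21.2%, against 40.1%), and the median was −0.27. Relative to the same senescent mean, the lysosomal median was −0.16, −0.40, −0.13 and −0.29 in the lncRNA-OIS1 libraries. It was −0.64 with p53 knockdown and 0.18 in the control. GLB1, the lysosomal β-galactosidase stained as a mark of senescence, had 906.2 against 1172.6 and 1281.2 (log2 −0.44, SE 0.11, adjusted p = 0.204), and IDUA, which degrades glycosaminoglycans, 77.9 against 173.7 and 182.6. GUSB, another glycosidase, lay above both with 297.1 against 162 and 151.4. In cholesterol synthesis and uptake 18 of 23 genes were above both (78.3%, against 40.1% of all genes), with a median of 0.26. They were led by INSIG1 (1749.7 against 712.3 and 727.2), which retains the sterol sensor in the endoplasmic reticulum. The cholesterol median was 0.05, 0.32, 0.04 and 0.40 in the lncRNA-OIS1 libraries, 0.60 with p53 knockdown and −0.11 in the control. The medians were 0.03 for the unfolded protein response, −0.08 for glycolysis and 0.12 for PI3K signalling. Without senescent replicate 1 they were 0.0055 for the unfolded protein response and 0.076 for PI3K signalling, and without replicate 2 they were 0.087 and 0.056. ATF3, a stress-induced factor, had 25.1 against 44.8 and 57.7, and PDK1, a kinase that inhibits pyruvate dehydrogenase, 427 against 990.1 and 946.3.

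The largest differences beyond both senescent libraries, with 12 genes named in each direction, brought together several of these groups. Above, they were C3, CXCL1, IFIH1, IFIT1, CXCL8, CRISPLD2, EMR1, CADPS2, OASL, OAS3, NEK2 and EVI2B, of which CXCL1, CXCL8, IFIH1, IFIT1, OASL and OAS3 belong to the inflammatory or interferon lists. C3, the central complement protein, had 416.3 against 20 and 51.6, with 616, 112.6, 1203.8 and 20 in the lncRNA-OIS1 libraries (log2 3.70, SE 2.42, adjusted p = 0.574). CRISPLD2, a secreted protein that binds endotoxin, had 430.3 against 76 and 89.9, and 608.1 in the control. EMR1 (now ADGRE1), an adhesion receptor best known from macrophages, stood at 95.7, and at the floor in the senescent pair, the control, p53 knockdown and lncRNA-OIS1 replicate 4. Its other lncRNA-OIS1 values were 37.2, 29.2 and 39.4, and it is 1 of the 2 genes at least 2-fold above all 8 other libraries. The leukocyte markers tested were not above the senescent range with it: PTPRC was at the floor, LAPTM5 had 32.7 against 70 and 50.6, and CD14 117.7 against 143.9 and 115.2.

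Below, the 12 were COL4A5, SLC14A1, KIAA1671, INSC, BRD7, GJA5, CLCA2, BAIAP2, ZFHX2, IGFBP2, CPA4 and AK4. COL4A5, a chain of basement-membrane collagen IV, had 27.3 against 342 and 360.9, with 313, 285.4, 165.1 and 1118 in the lncRNA-OIS1 libraries and 268.7 with p53 knockdown. All 7 other RASG12V libraries were thus far higher and only the control was at the floor (log2 −3.69, SE 1.05, adjusted p = 0.239). COL4A6, the head-to-head neighbour of COL4A5 on the X chromosome and named for that after its values were seen, had 27.3 against 71.1 and 76.2. SLC14A1, a urea transporter, had 25.1 against 355.3 and 276, with 62 for p53 knockdown and 218.6 to 446.4 for lncRNA-OIS1 hairpins (log2 −3.64, SE 0.43, adjusted p = 0.196). BAIAP2, an adaptor that shapes actin at the cell membrane, had 75.3 against 356.6 and 345.4 (log2 −2.22, SE 0.38, adjusted p = 0.196), and 151.6 to 423 in the remaining libraries. Only 3 genes were at least 2-fold below all 8 others: BRD7, BAIAP2 and KIAA1671, the last at the floor against 58.7 or more elsewhere. By contrast GJA5, a gap-junction protein, had 160 against 923.4 and 889.2, and the other RASG12V knockdown libraries were also low (20 to 195.1).

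Against the control, which differs by RASG12V as well as by the knockdown, 473 genes were called (3.79%), 183 higher (1.47%) and 290 lower (2.32%). With genes filtered on a mean of at least 80 the split was 197 higher and 184 lower. MMP1 rose from 361 in the control to 30796.4 (log2 6.41, SE 1.07, adjusted p = 0.0406), and STC1, the secreted hormone stanniocalcin, from 672.7 to 48419.6 (log2 6.17, adjusted p = 0.0053). TM4SF1, a surface tetraspanin-like protein, rose from 55.8 to 3842.1 (log2 6.11, adjusted p = 0.000232). SYPL2 fell from 13043.1 to 88.8 (log2 −7.20, adjusted p = 0.0251), and SULF1, which trims heparan sulfate at the cell surface, from 2869.2 to the floor. In the senescent libraries these 5 genes were on the same side of the control, with MMP1 at 45321.7 and 50370.2 and SULF1 at the floor. RAS-MAPK genes gave 6 calls higher of 28, among them SPRY4 (log2 3.08, adjusted p = 0.000857) and DUSP4 (3.95, 0.00386). Among p53 targets 5 of 36 rose and 0 fell, including TNFRSF10D (log2 2.85, adjusted p = 0.00383) and E2F7 (3.57, 0.0126). Matrix genes gave 4 calls lower of 34, among them DCN (decorin, log2 −5.94, adjusted p = 0.00626). No mitosis, replication or repair gene was called in either direction. All p-values here are from limma. For BRD7 knockdown against control, leaving out either senescent library took the 473 calls to 135. Leaving out lncRNA-OIS1 replicate 2 gave 283 calls, and leaving out replicate 4 gave 1482, among which 471 of the 473 remained.

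Against p53 knockdown, 2 genes were called (0.016%), 1 of them BRD7, which was lower (94.6 against 654, log2 −2.79, adjusted p = 0.03604 by limma). Without lncRNA-OIS1 replicate 4 there were 29 calls, and without any other single library of the senescent and lncRNA-OIS1 groups 0. Against the 4 lncRNA-OIS1 libraries, BRD7 was the only call (0.00801%; log2 −2.78, adjusted p = 0.01968), with 0 higher, and the next adjusted p was 0.4206. At an unadjusted p under 0.05, limma gave 142 higher and 200 lower there. A missing call in a design of 1 library against 1 or 4 does not show that the knockdowns act alike.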

How the data were processed

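PolyA RNA-seq libraries of 9 BJ samples were labelled by condition, and the labels gave the groups. The analysis began from the authors' deposited signal, a normalised read count per gene and library. The submitters' processing notes list TopHat2, HTSeq and hg19. Versions, roles and strand use were not given in the sources used here, so overlapping and antisense genes cannot be separated. All 9 deposited columns hold the same set of values, so differences in total RNA and depth are lost and values follow ranks. The symbol was missing for 1030 genes and had become a date for 21, and a gene-name table supplied 849.

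A linear model with 5 groups (4 residual degrees of freedom, moderated with a variance trend) was fitted to log2 values of 12481 genes with limma 3.58.1 in R 4.3.3, two-sided, with no pseudocount, and was tested on simulated data. As alternatives, the fit was repeated with a pseudocount of 10 or 50, without a filter, with a mean filter of 80, with median-of-ratios scaling, without the trend, on the groups compared alone, and leaving out each library. Named genes were a fixed set of 20 genes, some of which are not reported here, the largest called genes, and from each list the called members (at most 3 a direction) or, where none was called, the 2 with the largest absolute difference; since BRD7 alone was called, the 2-fold rule and the 12 genes named in each direction were added after the values were seen, and so were the histone and mitochondrial lists and further genes. The comparison, members and lists were chosen with earlier results of these data known. Promoters are RefSeq GRCh38.p14; other coordinates are not given because the builds differ.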

Additional observations from a re-analysis of the deposited data

Results flagged for a closer look

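For 12 of 80 named genes, 1 of the 4 lncRNA-OIS1 libraries was set apart from the other 3 by Dixon's ratio. Chance gives that in about 1 in 20 groups of normally distributed values. The ratio was taken on unlogged counts with a floor, where that rate need not hold. The lncRNA-OIS1 libraries enter the BRD7 comparisons through the shared estimate of the spread. The library set apart was replicate 4, and higher than the others, for CDKN2A (362.3), COL4A5 (1118), KIAA1671 (236.4), CPA4 (100.7), CADPS2 (283.9), DOCK4 (6150.9), FAM65B (81.2) and LMOD1 (40.6). It was replicate 1, and higher, for TGFBI (287.7), TIE1 (129.1) and GLB1 (1094.2), and replicate 2, and lower, for INSIG1 (1715.9). For CDKN2A, CPA4 and LMOD1 the other 3 libraries were all at the floor. For GLB1 the distance was small, with 1022.8 to 1029.6 in the other 3.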

How the results depend on the processing

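No paired analysis was possible because the BRD7 knockdown library carries no replicate number shared with both senescent libraries. Leaving out 1 library at a time gave 0 to 8 calls for BRD7 knockdown against senescent (1 in the full set), 135 to 1482 for BRD7 knockdown against control (473), 0 to 29 for BRD7 knockdown against p53 knockdown (2) and 0 to 1 for BRD7 knockdown against lncRNA-OIS1 knockdown (1). Without lncRNA-OIS1 replicate 4 the last call was ENSG00000217801 (43.9 against 20 to 20.2 elsewhere), not BRD7. For BRD7 knockdown against senescent, pseudocounts of 10 and 50 and the fit without a variance trend each gave 0 calls, no filter gave 30, and the fit of the 2 groups compared gave 81, of which 72 had equal senescent values and which had 1 residual degree of freedom. No filter gave 713 calls for BRD7 knockdown against control, 69 for BRD7 knockdown against p53 knockdown and 23 for BRD7 knockdown against lncRNA-OIS1 knockdown. A pseudocount of 50 gave 1 call for BRD7 knockdown against p53 knockdown, and the fit of the 2 groups compared 0 for BRD7 knockdown against lncRNA-OIS1 knockdown. The count of genes at least 2-fold above both senescent libraries (412) was 1001 at 1.5-fold, 17 at 4-fold, 203 with a pseudocount of 50 and 492 to 564 against 1 senescent library. The count of genes at least 2-fold below both senescent libraries (221) was 799, 19, 89 and 279 to 342. Except by construction of the fold settings and of the added pseudocount, which shrinks folds of low genes, the cause was not tested.

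On leaving out a senescent library the log2 difference turned its sign for KRT18 (−0.16 to 0.10) and CD14 (−0.29 to 0.031), each above 0 without replicate 1, and for IL1A (−0.69 to 0.32), above 0 without replicate 2. Of 1107 values of named genes under the alternatives, 1088 kept their direction and side of the threshold. That count was largely fixed in advance and does not measure robustness. Only BRD7 was called to begin with, and its call held in 5 of 14 alternatives. The filters, the trend and the control and lncRNA-OIS1 libraries cannot change a gene's log2 difference from the senescent pair. The endothelial list gave no value under the mean filter. Depth is unknown, and the floor of 20 limits every fold of a low gene.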

Other observations

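Histone genes of the replication-dependent clusters, read here from polyA RNA, lay below the senescent level. Of 18 genes with a HIST symbol, 11 were tested. Below both senescent libraries were 9 (81.8%, against 45.4% of all genes), 6 of these at least 2-fold (54.5%, against 1.77%). The median difference was −1.56, with none called. HIST2H2BE had 148.1 against 429.9 and 525, HIST1H2BK 389.9 against 1132.4 and 1296.3, and HIST1H4H 81.3 against 233.1 and 245.8. The control (82, 315.7 and 24) and the p53 knockdown library (70.2, 261.7 and 46.2) were low for these 3 genes as well. HIST1H2BH, at 40.7 with both senescent libraries at the floor, was the 1 member at least 2-fold above.

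Transcripts of the mitochondrial genome also lay mostly below: 24 of 27 tested were below both senescent libraries (88.9%, against 45.4% of all genes). The median was −0.62, and 5 were at least 2-fold below (18.5%, against 1.77%). Relative to the same senescent mean, the median was −1.12 in the control, −0.74, −0.70, −0.49 and −0.80 in the lncRNA-OIS1 libraries and −0.66 with p53 knockdown, so that only lncRNA-OIS1 replicate 3 among these 6 lay closer to the senescent level than BRD7 knockdown. MT-ND1, a subunit of complex I, had 24296.7 against 43305 and 46989.9, and the ribosomal RNA MT-RNR2 had 55498.9 against 96855.3 in both. The adjacent tRNA genes MT-TN (1028.4 against 2833.4 and 3567.6), MT-TC (559.9 against 1624.7 and 1993) and MT-TY (458.7 against 1346.6 and 1737.7) were among those 2-fold below. MT-CO1 held the highest value of the table in all 3 libraries, where equal distributions leave no difference to see. The fatty acid desaturases were on the other side: SCD had 5357.3 against 1612.6 and 1363.3, FADS2 6102.3 against 2788.9 and 2479.9, and FADS1 4412.6 against 2180.2 and 1857.6, while FASN had 4721.3 against 4043 and 3920.9. None of these genes was called, and both groups were chosen after their values were seen.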
